A study of Neogale vison with 6 samples.

Results

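The 6 genes described here encode proteins of the ATG8 family, MAP1LC3A and GABARAPL2, and the proteases that process them, ATG4A, ATG4B, ATG4C and ATG4D. They were taken from the deposited count table by gene symbol, as 6 of its 24526 genes, and all 6 had enough reads to be tested, among 12148 tested genes in all. Their identifiers in the table are ENSNVIG00000017515 (MAP1LC3A), ENSNVIG00000019423 (GABARAPL2), ENSNVIG00000019583 (ATG4A), ENSNVIG00000018383 (ATG4B), ENSNVIG00000010028 (ATG4C) and ENSNVIG00000024084 (ATG4D). The RNA came from Mv1Lu, an epithelial cell line from mink lung, sequenced as 3 control libraries, from untreated cells, and 3 libraries after cholesterol depletion (CD). For CD, cells were kept for 16 h in 50 μM lovastatin, a statin that blocks cholesterol synthesis, together with 50 μM mevalonate, in medium with 10% lipoprotein-deficient serum (LPDS). Drug, mevalonate and serum were applied as one treatment, so that their parts cannot be told apart. As all libraries are of one cell line, and the labels do not say whether they came from separate cultures, p-values measure the spread between these libraries only.

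ATG8 proteins are small ubiquitin-like proteins that are attached to phosphatidylethanolamine on the growing autophagosome membrane. There they recruit cargo receptors and the factors that move and fuse the autophagosome. ATG4 cysteine proteases act at both ends of this cycle: they trim the new ATG8 protein to expose the glycine used for attachment, and they later cut the lipid-bound form off the membrane. The LC3 subfamily, with MAP1LC3A, MAP1LC3B and MAP1LC3C, is best known from membrane expansion and cargo binding, and the GABARAP subfamily, with GABARAP, GABARAPL1 and GABARAPL2, from autophagosome maturation and fusion. Bulk RNA levels do not report the processing or lipidation of the proteins.

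The libraries held 13473820 to 18633764 reads on genes. The spread between libraries was larger in CD than in control, with a common biological coefficient of variation of 0.213 against 0.0842. CD replicate 3 stood apart from the other CD libraries on the second principal component (12.3% of the variance), and had the largest share of reads assigned to no annotated feature (25.4%, against 19.5% to 23.4% in the other libraries). Results are therefore also given without it. Unmapped reads were most frequent in control replicates 1 and 2 (18.4% and 13.6%, against 3.54% to 9.37% in the other libraries), and control replicate 1 had the largest share of reads on no gene (47.2%). Of genes known to be induced by sterol depletion, the cholesterol synthesis genes HMGCS1 (log2 fold change, log2FC, 3.43; FDR 4.17e-07, edgeR) and IDI1 (2.10, FDR 6.54e-06, edgeR) were called higher. Of the epithelial markers EPCAM and CDH1 were near 0, at a mean of 0.105 and 0.285 CPM (counts per 1000000 after scaling), while KRT19 was at 697 CPM and the collagen gene COL1A2, usually a fibroblast marker, at 188 CPM. The lung surfactant genes SFTPC and SFTPB had no reads. With them, the 5 lung lineage markers summed to 1.71 to 2.65 CPM in control and 0.864 to 1.35 CPM in CD libraries. Most of this was SCGB1A1 (mean 1.41 CPM in control, 0.597 CPM in CD). The summed level of the 4 epithelial markers in the table lay between 884 and 1011 CPM in control and between 385 and 540 CPM in CD libraries. Nearly all of this sum was KRT19 (mean 935 CPM in control, 458 CPM in CD), while the mean of CLDN4 was 0.603 CPM in control and 7.02 CPM in CD and that of CDH1 0.18 and 0.389 CPM. The 7 fibroblast markers summed to 310 to 387 CPM in control and 183 to 232 CPM in CD libraries. Most of this sum was COL1A2 (mean 212 CPM in control, 164 CPM in CD) and COL3A1 (97.25 and 29.5 CPM). The means of DCN and LUM went the other way, from 0.0608 to 0.328 CPM and from 0.145 to 0.758 CPM. The 4 endothelial markers summed to 0.0722 to 0.22 CPM in control and 1.17 to 1.96 CPM in CD libraries. Most of the sum in CD was VWF (mean 0.103 CPM in control, 1.195 CPM in CD), while the mean of KDR went from 0.0663 to 0.024 CPM. The leukocyte marker PTPRC was at a mean of 0.012 CPM. The 4 leukocyte markers in the table summed to at most 5.84 CPM in control and to 17.6 to 23.3 CPM in CD libraries, nearly all of it from CD68, a lysosomal protein gene not limited to leukocytes. The part of such markers in the results below was not tested.

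The question asked of the members was whether their transcripts changed under CD, and whether they changed together. Both ATG8 genes and the protease gene ATG4A rose 2.01- to 2.42-fold in CD, whereas ATG4B fell slightly and ATG4C and ATG4D were not called. Thus 3 of the 6 members were called higher and 1 lower in the quasi-likelihood test of edgeR at an FDR under 0.05. Over all tested genes, 24.8% were called higher and 22.9% lower (47.7% in either direction), so that a call as such was common in this comparison. A called increase of at least 2-fold was found for 10.6% of all tested genes and for the same 3 members. The median log2FC was 0.71 over the 6 members and 0.057 over all tested genes. Some of these genes had been picked out by the study from these same libraries, so the calls are not independent evidence.

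**Figure D1:**
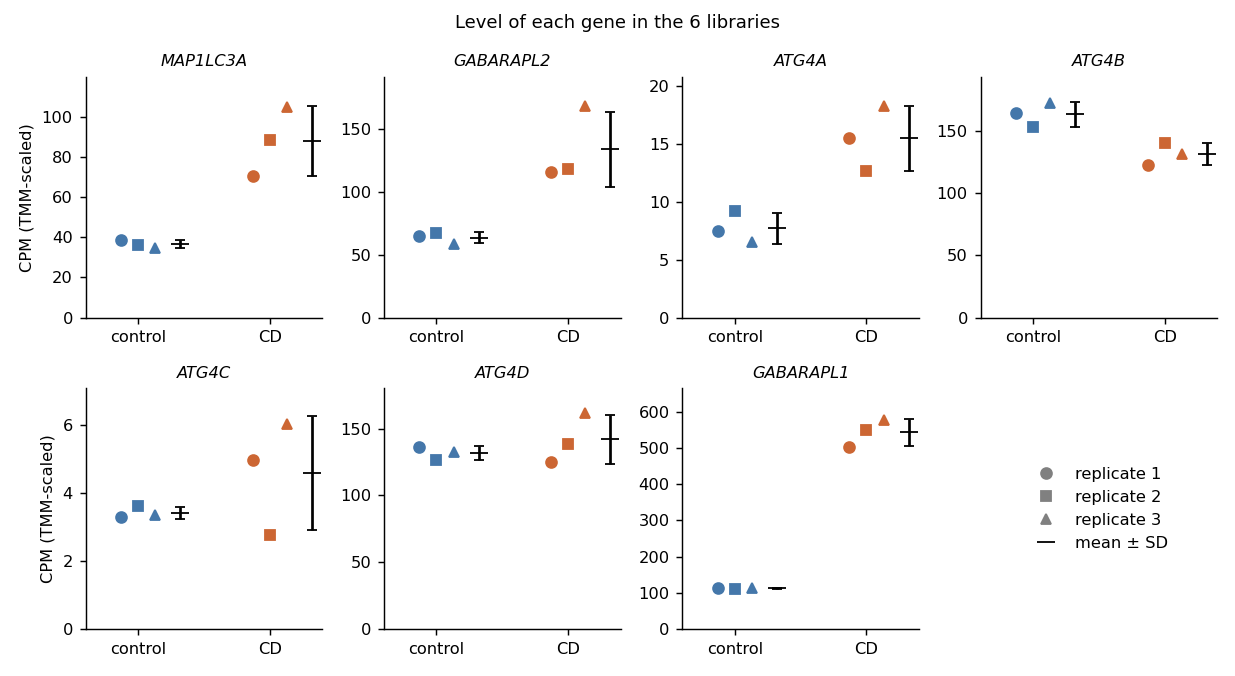
Level of each of the 6 members, and of GABARAPL1, in every library, in CPM after TMM scaling on a linear axis from 0; symbols mark the replicate number, blue is control and orange is CD, and black bars give the mean ± SD of 3 libraries. All CD libraries lie above all control libraries for MAP1LC3A, GABARAPL2, ATG4A and GABARAPL1 and below them for ATG4B, and the groups overlap for ATG4C and ATG4D.

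MAP1LC3A, which encodes one of the LC3 proteins, was at 38.6, 36.1 and 34.7 CPM in control replicates 1, 2 and 3 and at 70.4, 88.6 and 105 CPM in CD replicates 1, 2 and 3. The lowest CD library thus lay well above the highest control library, and the CD libraries differed among themselves more than the controls did. The means were 36.5 ± 1.98 CPM in control and 88.1 ± 17.4 CPM in CD (SD, n = 3 each). The log2FC was 1.27 (standard error, SE, 0.16; FDR 1.19e-04, edgeR), or 2.42-fold with a 95% interval of 1.90 to 3.07. It was called under each of 14 alternative settings. Without CD replicate 3 the log2FC was 1.09.

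GABARAPL2, the GABARAP family member also known as GATE-16, was at 64.9, 67.0 and 58.9 CPM in controls 1 to 3 and at 116, 118 and 169 CPM after CD. CD replicates 1 and 2 were close to each other and CD replicate 3 was higher, and all 3 lay above the controls. The means were 63.6 ± 4.23 CPM and 134 ± 29.9 CPM (SD, n = 3 each), a log2FC of 1.08 (SE 0.16, FDR 3.74e-04, edgeR). This equals 2.11-fold, and the 95% interval on the log2 scale was 0.72 to 1.43. All 14 alternative settings called it, and the log2FC without CD replicate 3 was 0.84. In the RefSeq annotation of mink the gene overlaps ADAT1, a tRNA adenosine deaminase gene. ADAT1 had 54 to 110 reads per library and lay lower in every CD library than in any control library. It was not called, with a log2FC of -0.49 (FDR 0.09, edgeR). The sources used here give no strand setting for the read counting, and the part of ADAT1 in the value of GABARAPL2 was not tested.

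ATG4A, a protease that acts mainly on the GABARAP subfamily, was at 7.45, 9.17 and 6.55 CPM in controls 1 to 3 and at 15.5, 12.7 and 18.3 CPM after CD. The groups did not overlap, although the counts behind these levels were modest, at 104 to 127 reads in control and 207 to 254 reads in CD libraries. The means were 7.72 ± 1.33 CPM and 15.5 ± 2.80 CPM (SD, n = 3 each). The log2FC was 1.01 (SE 0.20, FDR 0.0026, edgeR), or 2.01-fold with a 95% interval of 1.47 to 2.76. ATG4A was called under each of 14 alternative settings, with a log2FC of 0.84 without CD replicate 3.

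ATG4B, the protease with the broadest activity on ATG8 proteins and the one most studied, was at 164, 153 and 173 CPM in controls 1 to 3 and at 123, 140 and 131 CPM after CD. Every CD library lay below every control library, by a small margin. The means were 163 ± 9.82 CPM and 131 ± 8.54 CPM (SD, n = 3 each), so that ATG4B fell by 0.31 on the log2 scale, with a standard error of 0.11 (FDR 0.0382, edgeR). In linear terms the level in CD was 0.806 of that in control, with a 95% interval of 0.680 to 0.954. This call was the least stable of the 4: it was kept under 8 of the 14 alternative settings and lost with the FDR rising to at most 0.143. It was lost when control replicate 1, 2 or 3 or CD replicate 1 was left out (FDR 0.125, 0.0578, 0.143 and 0.0688, edgeR). It was lost also without the filter on low counts (FDR 0.0548, edgeR) and with the replicate number as a block (FDR 0.109, edgeR). The log2FC stayed between -0.39 and -0.25 in all of these fits. Without CD replicate 3 the call was kept (log2FC -0.35, FDR 0.00635, edgeR).

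ATG4C and ATG4D are the protease genes whose products are known to need cleavage by caspases for full activity. ATG4C had few reads, with 46, 50 and 61 in controls 1 to 3 and 81, 45 and 84 after CD. In CPM this was 3.29, 3.61 and 3.36 in control and 4.98, 2.76 and 6.05 in CD. CD replicate 2 was thus the lowest of all 6 libraries while the other CD libraries were the highest, and the groups overlapped. The log2FC of 0.42 had a 95% interval of -0.21 to 1.05 (FDR 0.246, edgeR), an interval that holds both no change and a doubling. Without CD replicate 2 the gene was called higher (log2FC 0.66, FDR 0.049, edgeR), and without CD replicate 3 its log2FC was 0.14. ATG4D had many more reads, between 1746 and 2404 per library, and lay at 136, 126 and 132 CPM in control and at 125, 139 and 162 CPM in CD. The lowest of the 6 libraries and both of the highest belonged to CD. The log2FC was 0.11 with a 95% interval of -0.16 to 0.38 (FDR 0.487, edgeR), or from 0.894-fold to 1.30-fold. Without CD replicate 3 the direction turned, with a log2FC of -0.029. ATG4D overlaps KRI1, a ribosome biogenesis gene, in the RefSeq annotation. KRI1 fell from 58.2 ± 1.11 to 33.8 ± 4.02 CPM (SD, n = 3 each; log2FC -0.78, FDR 7.54e-04, edgeR). Per the methods of the study, libraries were made from double-stranded cDNA with the Nextera XT kit. No strand setting of the read counting is given, and the part of KRI1 in the value of ATG4D was not tested.

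**Figure D2:**
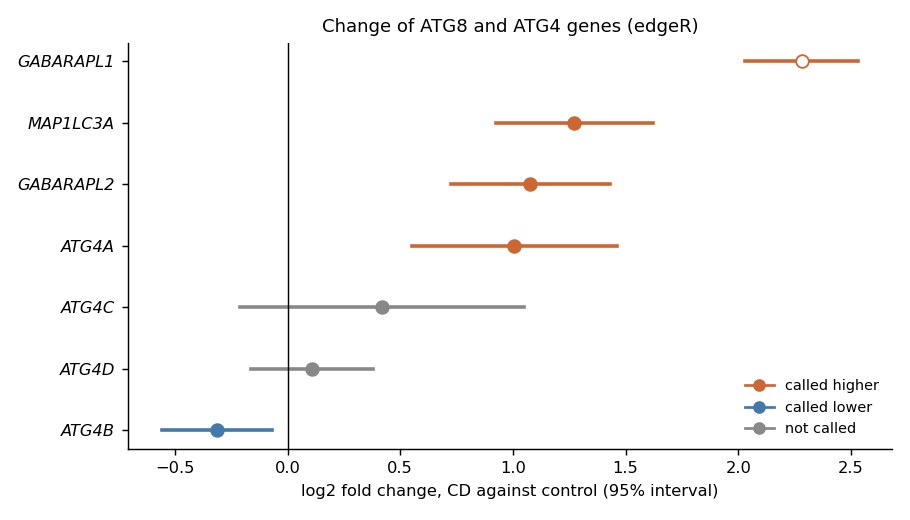
Log2 fold change of CD against control for the 6 members (filled points) and GABARAPL1 (open point), with lines for the 95% interval of the edgeR fit; orange is called higher, blue called lower and gray not called at an FDR of 0.05. The intervals of MAP1LC3A, GABARAPL2 and ATG4A overlap widely around a doubling, GABARAPL1 lies above them at 2.28, and ATG4B lies below 0.

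Across the family, the groups did not overlap for 3 members that were higher and 1 that was lower in CD, while 29.5% of all tested genes lay wholly higher and 28.6% wholly lower. The exact two-sided permutation test gave p = 0.1 for each of these 4 members, the smallest p that 3 libraries against 3 allow, and p = 0.4 for ATG4C and 0.5 for ATG4D. Within the CD group, 5 of the 6 members were highest in CD replicate 3 and ATG4B was highest in CD replicate 2. Of all tested genes, 40.1% were highest in CD replicate 3 among the CD libraries. The coefficient of variation between CD libraries was 19.8% for MAP1LC3A and 22.3% for GABARAPL2, against 5.42% and 6.65% between control libraries. The corresponding medians over all tested genes were 17.0% in CD and 8.80% in control. ATG4B varied little in either group, by 6.50% in CD and 6.02% in control.

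Whether members changed by different amounts was examined with the ratio of each pair of genes within a library, in which the scaling of the library cancels. Only changes of these ratios between groups are compared, since levels of different genes depend on transcript length. Of the 15 pairs, 11 had ratios that did not overlap between the groups, each with p = 0.1 in the exact two-sided permutation test (0.136 after adjustment over the 15 pairs). Among all pairs of tested genes, 59.7% had ratios without overlap, so that such a separation was common as well. All 9 pairs that set MAP1LC3A, GABARAPL2 or ATG4A against ATG4B, ATG4C or ATG4D were among them. These sides were formed by the calls given above, so the 9 pairs are no separate evidence. The ratios to ATG4B had to separate, because MAP1LC3A, GABARAPL2 and ATG4A lay wholly higher and ATG4B wholly lower in CD.

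The largest shift was that of MAP1LC3A against ATG4B. Its log2 ratio was -2.08, -2.08 and -2.31 in controls 1 to 3 and -0.80, -0.66 and -0.32 after CD, a difference of 1.56, so that the number of MAP1LC3A reads per ATG4B read rose 2.96-fold. For GABARAPL2 against ATG4B the mean log2 ratio went from -1.36 ± 0.18 to 0.011 ± 0.31 (SD, n = 3 each), a difference of 1.37. Transcripts of both substrates therefore shifted upward relative to the transcript of this protease in every CD library. Within the protease family, ATG4A shifted against ATG4B from a mean log2 ratio of -4.39 ± 0.33 to -3.09 ± 0.32 (SD, n = 3 each), or 2.47-fold. ATG4B also moved against ATG4D, from 0.31 ± 0.063 to -0.11 ± 0.17 (SD, n = 3 each).

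Differences among the 3 genes that rose were at most 0.26 on the log2 scale. GABARAPL2 against ATG4A differed between groups by 0.065 on the log2 scale, with overlapping ratios (exact permutation p = 0.5). For MAP1LC3A against ATG4A the difference was 0.26, also with overlap (exact permutation p = 0.4). The mean log2 ratio of MAP1LC3A to GABARAPL2 was higher by 0.20 in CD (exact permutation p = 0.1). Their log2 ratio was -0.75, -0.89 and -0.76 in controls 1 to 3 and -0.72, -0.42 and -0.68 after CD, values which do not overlap but nearly meet between control replicate 1 and CD replicate 1. In the order of fold changes, from MAP1LC3A over GABARAPL2, ATG4A, ATG4C and ATG4D down to ATG4B, the neighbours with overlapping ratios were GABARAPL2 with ATG4A and ATG4C with ATG4D.

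**Figure D3:**
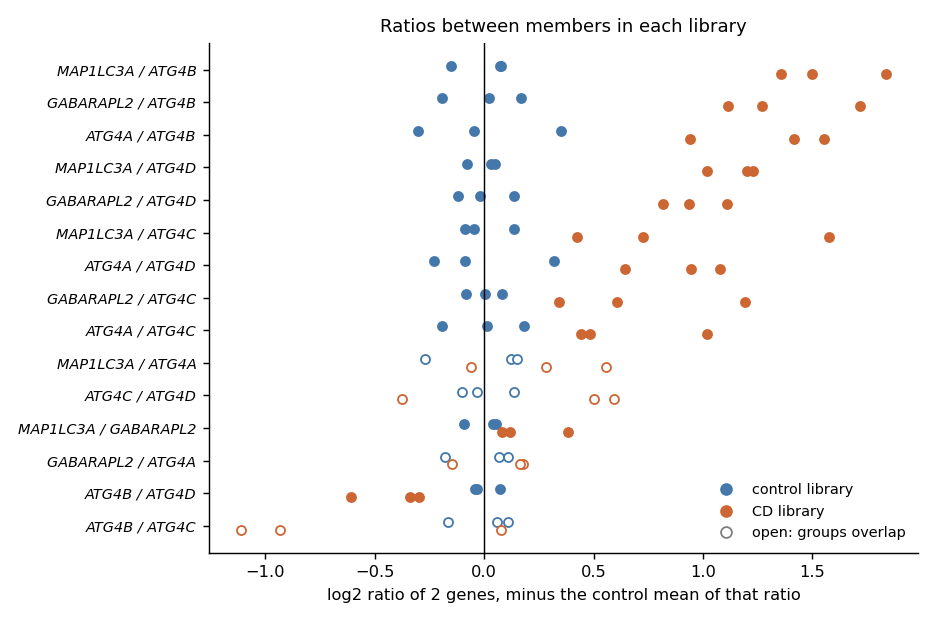
Log2 ratio of each of the 15 pairs of members in every library, drawn relative to the control mean of the same pair; blue points are control libraries, orange points are CD libraries, and open points mark pairs whose groups overlap. The ratios of MAP1LC3A, GABARAPL2 and ATG4A to ATG4B show the largest differences between the group means, of 1.56, 1.37 and 1.30.

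Of the other ATG8 genes, rows could be found for GABARAPL1 (listed in the table as GBRL1 and matched by its description) and MAP1LC3C. MAP1LC3B, MAP1LC3B2 and GABARAP were not analysed here. GABARAPL1, which like GABARAPL2 is recruited to late steps of autophagosome formation, was at 113, 110 and 112 CPM in controls 1 to 3 and at 503, 548 and 577 CPM after CD. The groups lay far apart and each was tight. The means were 112 ± 1.85 CPM and 543 ± 37.4 CPM (SD, n = 3 each), a log2FC of 2.28 (SE 0.11, FDR 4.17e-07, edgeR). This equals 4.86-fold, with a 95% interval of 4.09 to 5.77, and the log2FC stayed between 2.20 and 2.34 with each library left out. The rise of GABARAPL1 exceeded that of MAP1LC3A by 1.03 and that of GABARAPL2 by 1.22 on the log2 scale, without overlap of the ratios (exact two-sided permutation test, p = 0.1 each; these 2 ratios were added after the values of GABARAPL1 had been seen). MAP1LC3C had 1 read in CD replicate 2 and 0 in the other libraries, and was not tested.

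The conjugation machinery attaches ATG8 proteins to the membrane. ATG7 is the activating enzyme and ATG3 the conjugating enzyme for ATG8. ATG10 joins ATG12 to ATG5, and this conjugate works with ATG16L1 or its paralog ATG16L2 as the ligase for ATG8. TECPR1 binds the ATG12-ATG5 conjugate. Of these 8 genes 7 were tested, 4 were called higher (57%) and 0 lower, and 3 were not called, with a median log2FC of 0.43. Over all tested genes, 24.8% were called higher and 22.9% lower. The counts of this list and of those below are description only, as the lists were chosen with earlier results of these data known.

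The fitted log2FC values lay between 0.21 and 0.74. ATG10 rose from 3.22 ± 0.22 to 5.38 ± 0.630 CPM (SD, n = 3 each; log2FC 0.74, FDR 0.0116, edgeR). ATG5 (log2FC 0.45, FDR 0.0378, edgeR) and TECPR1 (0.45, FDR 0.0375, edgeR) rose as well, but each was called in 7 of 14 alternative settings. ATG16L1, at 0.34 (FDR 0.0414, edgeR), was called in 4 of them, so that the count of 4 rests on values near the threshold. It lay between 0 and 4 with each library left out, being 0 without control replicate 3, 1 without control replicate 1 or CD replicate 2, and 2 without control replicate 2 or CD replicate 1. It was 1 with no low-count filter or with the replicate block. Over all tested genes, the number called higher was 3016 in the reported fit and 2216 to 3616 with each library left out.

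ATG3 had means of 34.8 ± 3.66 (control) and 46.2 ± 9.20 CPM (CD) (SD, n = 3 each; log2FC 0.41, FDR 0.0627, edgeR), and its log2FC was 0.20 without CD replicate 3. Without CD replicate 1, however, ATG3 was called higher (log2FC 0.49, FDR 0.0433, edgeR). ATG7 was at 81.0 ± 1.86 and 93.6 ± 3.20 CPM (log2FC 0.21, FDR 0.125, edgeR). ATG12 had a log2FC of 0.43 with a 95% interval of -0.15 to 1.02 (FDR 0.199, edgeR). It was called higher when control replicate 2 was omitted (log2FC 0.75, FDR 0.0405, edgeR), and lay at 0.29 when control replicate 1 or 3 was. ATG16L2 had 5 to 11 reads per library and was not tested. The difference between these genes and the ATG8 genes was not tested.

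Proteins that bind ATG8 were followed as 2 lists. Among cargo receptors, which tie cargo to ATG8 on the membrane, 10 of 19 tested genes (53%) were called higher and 1 lower. The shares over all tested genes were 24.8% and 22.9%. The median log2FC of the receptors was 0.39. SQSTM1, which encodes p62, rose most (log2FC 2.32, FDR 1.24e-06, edgeR), followed by OPTN, a receptor for ubiquitinated mitochondria and bacteria (1.65, FDR 1.22e-05, edgeR), and NBR1, a p62-related receptor (1.54, FDR 8.54e-06, edgeR). PHB2, a protein of the inner mitochondrial membrane that also binds LC3, was the one that fell (log2FC -0.82, FDR 2.26e-04, edgeR). Without CD replicate 3 the numbers of receptors were 12 and 1. Those of all tested genes were then 3616 higher and 3606 lower, against 3016 and 2784 with it.

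Among adaptors for transport and fusion, 6 of 13 tested genes (46%) were higher and 1 lower, with a median of 0.48. Over all tested genes the shares were 24.8% and 22.9%. Without CD replicate 3 the numbers of adaptors were 8 and 1. Those of all tested genes were then 3616 and 3606, against 3016 and 2784 with it. TP53INP2, which carries LC3 out of the nucleus, rose from 5.87 ± 0.406 to 20.4 ± 8.29 CPM (SD, n = 3 each; log2FC 1.80, FDR 8.48e-04, edgeR), with CD replicate 3 at 10.9 CPM and the other CD libraries at 25.2 and 25.3 CPM. MAPK8IP1, a JNK scaffold that links LC3-bearing vesicles to motor proteins, had a log2FC of 1.33 (FDR 1.64e-05, edgeR). KBTBD7, a ubiquitin ligase adaptor that binds GABARAP proteins, fell from 3.53 ± 0.188 to 1.60 ± 0.275 CPM (SD, n = 3 each; log2FC -1.14, FDR 0.00228, edgeR).

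Regulators that are known to modify ATG4 or ATG8 proteins, or to act on their redox state, were 13 genes, all tested. Of these 6 (46%) were called higher and 0 lower, against 24.8% and 22.9% of all tested genes. Their median log2FC was 0.21. TXNIP, a thioredoxin-binding protein linked to the redox control of ATG4B, rose from 1.49 ± 0.355 to 13.7 ± 3.44 CPM (SD, n = 3 each; log2FC 3.21, FDR 1.12e-05, edgeR). ULK1, the initiating kinase that phosphorylates ATG4B, had a log2FC of 0.85 (FDR 2.51e-04, edgeR), and RNF5, a ubiquitin ligase that targets ATG4B for degradation, one of 0.77 (FDR 0.00123, edgeR). With each library left out, the number called higher lay between 3 and 7. It was 7 without CD replicate 3, 3 without control replicate 1 or 3 and 4 without control replicate 2 or CD replicate 1. Over all tested genes, 3016 were called higher in the reported fit and 3616 without CD replicate 3. This all-gene number was 2265, 2391 and 2216 without control replicate 1, 2 and 3, and 3078 without CD replicate 1. STK26, a kinase that phosphorylates ATG4B and was named after its values were seen, lay lower in every CD library than in any control library but missed the threshold (log2FC -0.65, FDR 0.0524, edgeR). It was called lower in 7 of 14 alternative settings: DESeq2, limma-voom, DESeq2 size factors, no low-count filter, the replicate block, and omission of CD replicate 1 or 3. With CD replicate 1 omitted the kinase gene NEK9 was called lower too.

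The upstream machinery that builds the membrane had 13 of 20 tested genes (65%) higher and 1 lower, with a median log2FC of 0.62. Over all tested genes, 24.8% were called higher and 22.9% lower. Without CD replicate 3 the numbers of the list were 13 and 2. Those of all tested genes were then 3616 and 3606, against 3016 and 2784 with it. ATG14, which directs the class III phosphatidylinositol 3-kinase to the site of autophagosome formation, rose most (log2FC 1.99, FDR 2.82e-05, edgeR), followed by the phosphoinositide-binding protein WIPI1 (1.71, FDR 5.11e-06, edgeR). AMBRA1, a regulator of BECN1, fell (log2FC -0.62, FDR 0.00677, edgeR).

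**Figure D4:**
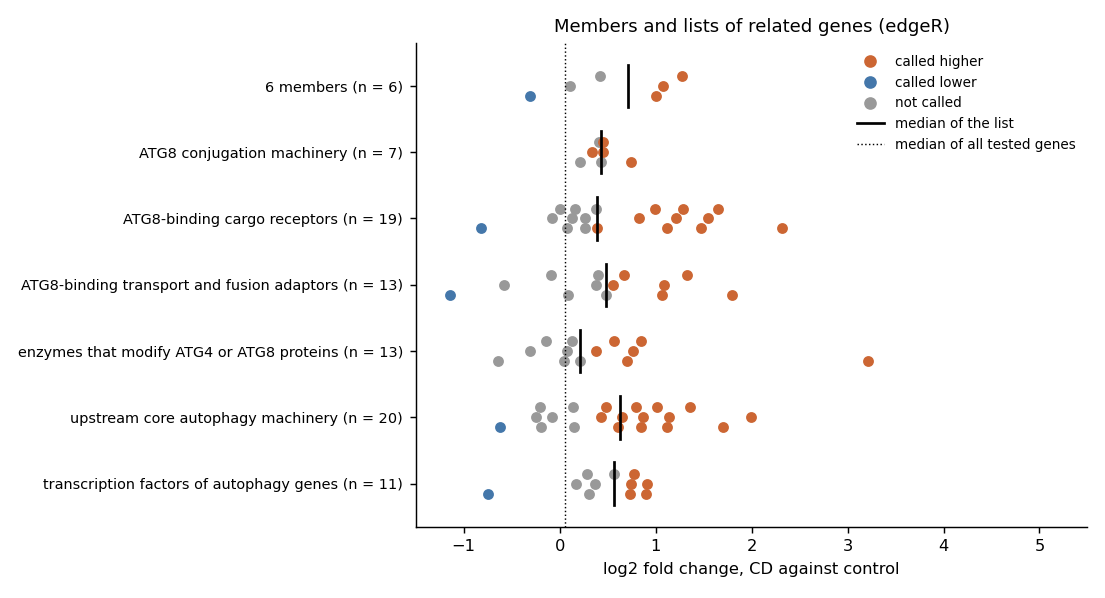
Log2 fold change of CD against control for the 6 members and for the tested genes of 6 lists (points; orange called higher, blue called lower, gray not called), with the median of each list as a black bar and the median of all tested genes as a dotted line at 0.057. The medians of these lists lie to the right of the dotted line, and the conjugation genes lie within a narrow range, between 0.21 and 0.74.

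The pattern of each member over the 6 libraries was compared with that of 7093 other genes (7094 for ATG4C) by Pearson's r of log2 CPM, as a description only, since all points share the difference between groups. MAP1LC3A was most like CARD19 (r = 0.9999), LRRC28 and SH3BGRL3, and 1135 genes had an r above 0.9. GABARAPL2 was most like WASHC3, ZRSR2 and COA5, and ATG4A most like FBXL4, AK3 and VAMP4. For these 3 members the named genes had an r from 0.9978 to 0.9999. ATG4B was most like GCC1, SCAF1 and GALNS (r from 0.996 to 0.998), whose own log2FC values were -0.31, -0.38 and -0.45. Few genes shared the pattern of ATG4C, for which 25 genes had an r above 0.9, with IMPA1 the nearest (r = 0.993). ATG4D was most like RPP21, RFNG and JOSD2, with 134 genes above 0.9.

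**Figure D5:**
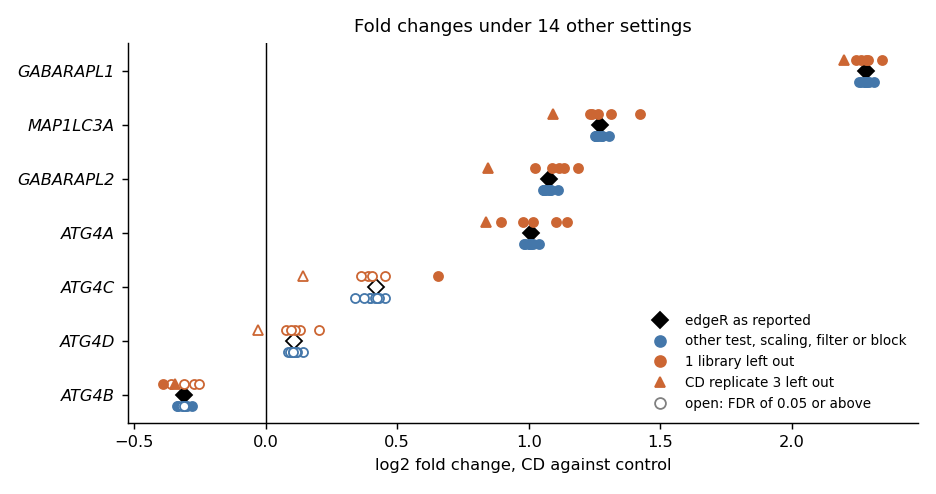
Log2 fold change of each member and GABARAPL1 in the reported edgeR fit (black diamond), with other tests, scalings, filters or a block (blue) and with 1 library left out (orange; triangle for CD replicate 3); open symbols have an FDR of 0.05 or above. GABARAPL1, MAP1LC3A, GABARAPL2 and ATG4A are filled throughout, ATG4B is filled in 8 of 14 alternatives, and for 6 of the 7 genes the triangle is the lowest value.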

How the data were processed

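RNA of untreated Mv1Lu cells and of cells subjected to CD was sequenced in 3 libraries each, and samples were grouped by their treatment labels. Per the labels and the methods of the study, reads were trimmed with fastp 0.20.1, aligned to the mink assembly NNQGG.v01 with STAR 2.7.2a and compared with DESeq2 1.30.1 in R 4.0.3. The authors deposited raw counts of reads per gene, and these counts are the values used here. The sources used here do not give the read counter or its strand setting. Rows of unmapped, multimapped, unassigned and ambiguous reads (29.3% to 47.2% of a library) name no gene and were left out. The deposited normalized files were not used.

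Counts were tested with edgeR 4.0.16 in R 4.3.3: filterByExpr at its defaults (minimum count 10, minimum total count 15), TMM scaling, robust glmQLFit and glmQLFTest with condition as the only term, and Benjamini-Hochberg adjustment over all 12148 tested genes, with calls at an FDR under 0.05. The standard error was the size of the log2 fold change divided by the square root of F (median over tested genes 0.18), and 95% intervals used the t distribution with the degrees of freedom of the fit. The script was tested on simulated data. CPM are counts per 1000000 reads on genes after TMM scaling. Ratios between genes were differences of log2 CPM (prior count 2) within a library, compared by exact two-sided permutation tests in scipy 1.17.1. Likeness was Pearson's r of log2 CPM over the 6 libraries among genes with a symbol and at least 10 CPM.

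The alternatives were DESeq2 1.42.0, limma-voom (limma 3.58.1), scaling by total counts, upper quartile or DESeq2 size factors, no low-count filter or a minimum of 50 counts, a block for replicate number, omission of every library in turn, an FDR of 0.01 for numbers of genes, and a prior count of 0.5 for ratios. Counts per list and the values of their genes under these alternatives were added after seeing the data. The members and gene lists were chosen with earlier results of these data known. Genes were named by a rule: the 6 members; every gene of the lists of other ATG8 genes and of conjugation; SQSTM1; the called genes at the ends of each other list; and for each member the 3 genes with the most similar pattern. Genes that overlap a member in the annotation, STK26 and NEK9 among the regulators, SREBF2 among the transcription factors, and marker genes were named in addition. Other list genes whose call depended on a setting are included in the counts only. Genes were matched by symbol or, failing that, by description. The RefSeq table of mink genes is of another assembly (ASM_NN_V1), so it was used only to see which genes overlap, and no coordinates are given. Some genes of the sterol response list are not reported here.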

Additional observations from a re-analysis of the deposited data

How the results depend on the processing

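The calls of MAP1LC3A, GABARAPL2 and ATG4A were kept under each of 14 settings, with log2FCs of 1.09 to 1.42, 0.84 to 1.19 and 0.84 to 1.14. The single lower call among the members, ATG4B, was lost (number 0) without the low-count filter, with the replicate block and at an FDR of 0.01; with each library left out the number was 0 to 1. The direction of ATG4D turned without CD replicate 3, with a range of -0.029 to 0.20 over the libraries left out. The cause was not tested. At an FDR of 0.01 the numbers of all called genes were 2006 higher, against 3016, and 2036 lower. Scalings moved the median log2FC of all genes only between 0.037 and 0.090. The number of separate pair ratios was 11 with a prior count of 0.5, 11 by sign within each replicate number, and 11 to 13 with each library left out. The labels number the replicates of both groups, but same-numbered libraries did not deviate together (r = -0.024, -0.329 and -0.185 for replicates 1, 2 and 3), so they were not treated as paired; the replicate block gave 2772 higher and 2636 lower genes, with 3 members higher. ATG4C had 45 to 84 reads per library and a coefficient of variation of 36.5% between CD libraries; the part of depth in its missing call was not tested.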

Other observations

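Of 11 transcription factors that are known to act on autophagy genes, 5 (45%) were called higher and 1 lower in CD (median log2FC 0.56). The shares over all tested genes were 24.8% and 22.9%. Without CD replicate 3 the numbers of factors were 8 and 1. Those of all tested genes were then 3616 and 3606, against 3016 and 2784 with it. FOXO4 rose from 14.7 ± 0.922 to 27.6 ± 1.29 CPM (SD, n = 3 each; log2FC 0.91, FDR 4.88e-04, edgeR), and FOXO3 by 0.90 (FDR 0.00166, edgeR). DDIT3, a factor of the stress response, had a log2FC of 0.78 (FDR 0.0248, edgeR) but was not called without control replicate 1 or 2, and its log2FC was 0.45 without CD replicate 3. SREBF1, the gene of a sterol-regulated factor, fell from 666 ± 105 to 398 ± 26.1 CPM (SD, n = 3 each, log2FC -0.74, FDR 0.00146, edgeR). SREBF2, also in this list, was not called (log2FC 0.17, FDR 0.337, edgeR). Their relation to the ATG8 and ATG4 genes was not tested.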
